A study of Mus musculus with 3 samples.

Results

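The nuclear exosome and the nuclear pore were followed through 35 genes, 12 of the exosome and its helicase and 23 of the pore, in mouse CAD cells after knockdown of the splicing regulators Ptbp1 and Ptbp2. The list of genes was taken as given, and a gene was found where its symbol stood among the aliases of a gene cluster in the deposited table. All 35 were found, each as 1 cluster, out of 27389 clusters in the table, of which 27224 were used. Each of the 35 had 269 reads or more in every library and entered every comparison.

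RNA inside the nucleus is trimmed or destroyed from its 3′ end by the exosome, a barrel of inactive subunits with an RNA-binding cap that threads RNA into attached nucleases, helped by a helicase that unwinds it. Spliced RNA leaves through the nuclear pore, a channel built of concentric rings with a basket on its nuclear side and filaments on its cytoplasmic side. Incompletely spliced transcripts are known to be held back at the basket and to be degraded by the exosome, the background against which the 2 machines are set side by side here.

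CAD cells are a catecholaminergic neuroblastoma line. They were transfected with siRNAs against Ptbp1 and Ptbp2 together, with siRNAs against Ptbp1 alone, or with control siRNAs, and poly(A)+ RNA was taken 72 h later from each. Each of the 3 groups had 1 library, read as paired ends of 36 bases, and the study asked how neuronal mRNA levels depend on regulated intron retention. Ptbp1 encodes a polypyrimidine tract binding protein of most cells outside the nervous system, and Ptbp2 its neuronal paralogue. With 1 library per group no difference has a replicate check and no p-value is given.

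The clusters held 14242557 reads in the library with both siRNAs, 16899510 after Ptbp1 siRNA and 16011365 in the control. Levels are given in CPM, reads divided by the scaled library size, and 1 CPM equalled 14.5 to 17.2 reads. Ptbp1 was 4.43-fold lower with both siRNAs than in the control (95% counting interval 4.19 to 4.69) and 5.38-fold lower after Ptbp1 siRNA (5.08 to 5.69). Ptbp2 was 1.16-fold lower with both siRNAs than in the control (1.04 to 1.29), and 3.49-fold higher after Ptbp1 siRNA alone (3.23 to 3.78). With both siRNAs Ptbp2 stood 4.04-fold below its level with the Ptbp1 siRNA (3.71 to 4.41). All 10 CAD identity markers were measured, among them Th, the gene of tyrosine hydroxylase, at 78.3 CPM with both siRNAs, 91.9 after Ptbp1 siRNA and 92.1 in the control. The markers differed among themselves. With both siRNAs Dbh, of noradrenaline synthesis, was 2.32-fold (2.21 to 2.45) and the transcription factor gene Phox2a 2.07-fold higher than the control (1.94 to 2.2), while Stmn2 had a ratio of 0.715 (0.682 to 0.749), and intervals lay above 1 for 4 of 10 and below 1 for 4. After Ptbp1 siRNA Dbh was 1.98-fold higher (1.88 to 2.09). Summed over the 10 markers the level was 4557, 3933 and 4557 CPM in the order both siRNAs, Ptbp1 siRNA and control. Of the 6 fibroblast markers only Col1a1 and Pdgfra reached 1 CPM in any library, and Col1a2 was at 0. These summed to 4.84, 6.34 and 9.17 CPM, of which Col1a1 made up 3.32, 5.11 and 7.88. Of the 5 endothelial and blood markers only Pecam1 and Cdh5 reached 1 CPM, and Hbb-b1 was at 0. Their sum was 11.4, 16.6 and 22.0 CPM, of which Pecam1 made up 11.1, 15.1 and 21.6. The other markers of both lists were left out of the sums. Since CAD is a cell line, these few reads do not show that fibroblasts, endothelial or blood cells were present. Whether any were, and any part of them in the differences below, was not tested. In such bulk libraries fewer cells of a type and less RNA per cell cannot be told apart.

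Promoter sequences are shown for 5 genes because they stood on opposite sides within their machine: the exosome genes Exosc2 and Dis3, which were among the furthest above the control, and Exosc3, the furthest below it, then Nup155 above and Nup107 just below the control among pore genes. They were chosen after the values were seen, from genes with a single entry in the RefSeq table of the GRCm38.p6 build, in which 29 of the 35 genes had 33 windows. Exosc4, Exosc9, Nup35, Nup43, Nup85 and Seh1l had none. Each window holds 300 bases, 250 before and 50 after the gene's start, read 5′ to 3′ on the gene's strand. Capitals mark matches on either strand to GGGCGG (SP/KLF), CCAAT (NF-Y), TGCGCA (NRF1), GCGGGAA (E2F), CCGGAAG (ETS) and AAGATGG (YY1). The windows lie at chr2:31670465-31670764 (plus strand) for Exosc2, chr4:45320567-45320866 (minus) for Exosc3, chr14:99099721-99100020 (minus) for Dis3, chr15:8109063-8109362 (plus) for Nup155 and chr10:117792656-117792955 (minus) for Nup107.
Exosc2: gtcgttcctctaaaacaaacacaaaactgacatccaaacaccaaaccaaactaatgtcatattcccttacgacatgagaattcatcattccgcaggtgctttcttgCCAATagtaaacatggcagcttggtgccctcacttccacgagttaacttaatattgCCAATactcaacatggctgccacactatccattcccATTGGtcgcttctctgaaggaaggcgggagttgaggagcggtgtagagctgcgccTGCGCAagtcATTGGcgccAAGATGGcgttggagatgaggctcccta
Exosc3: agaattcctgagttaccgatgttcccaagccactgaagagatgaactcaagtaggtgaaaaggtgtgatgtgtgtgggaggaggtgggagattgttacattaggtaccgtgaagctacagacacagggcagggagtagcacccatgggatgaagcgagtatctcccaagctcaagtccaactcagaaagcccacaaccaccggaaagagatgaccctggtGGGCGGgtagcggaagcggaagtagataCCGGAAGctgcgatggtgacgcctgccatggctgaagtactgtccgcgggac
Dis3: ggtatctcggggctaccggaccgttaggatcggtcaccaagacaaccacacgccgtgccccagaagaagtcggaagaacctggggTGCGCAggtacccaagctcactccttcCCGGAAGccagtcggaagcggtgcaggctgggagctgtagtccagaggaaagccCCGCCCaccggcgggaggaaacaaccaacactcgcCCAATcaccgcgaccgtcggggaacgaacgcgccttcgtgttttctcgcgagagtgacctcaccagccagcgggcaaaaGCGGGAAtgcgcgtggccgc
Nup155: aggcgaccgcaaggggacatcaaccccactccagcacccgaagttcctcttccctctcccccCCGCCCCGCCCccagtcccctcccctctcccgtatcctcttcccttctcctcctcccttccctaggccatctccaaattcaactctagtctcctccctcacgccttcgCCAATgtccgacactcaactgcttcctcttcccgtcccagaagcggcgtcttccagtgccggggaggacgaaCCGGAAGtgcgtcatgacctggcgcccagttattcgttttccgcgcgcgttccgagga
Nup107: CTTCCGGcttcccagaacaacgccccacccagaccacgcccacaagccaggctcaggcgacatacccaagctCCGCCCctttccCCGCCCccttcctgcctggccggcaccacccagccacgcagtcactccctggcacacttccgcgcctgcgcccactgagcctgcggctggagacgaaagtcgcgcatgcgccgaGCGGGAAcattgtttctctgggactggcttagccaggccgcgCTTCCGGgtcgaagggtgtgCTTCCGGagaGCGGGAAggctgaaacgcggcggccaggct

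The Exosc2 window held CCAAT 4 times, TGCGCA once and AAGATGG once, and no GGGCGG. Exosc3 held GGGCGG once and CCGGAAG once. Dis3 held every searched motif but AAGATGG, once each. Nup155 held 2 overlapping matches of GGGCGG, and CCAAT and CCGGAAG once each, while Nup107 held CCGGAAG 3 times and GGGCGG and GCGGGAA 2 times each. Matches of different motifs did not overlap in these 5 windows. Over all windows of the 35 genes, 22 of 33 (66.7%) held GGGCGG, against 35.7% of all 32851 promoters in the table. The shares were 45.5% against 37.4% for CCAAT, 27.3% against 7.76% for TGCGCA and 27.3% against 8.86% for CCGGAAG. For AAGATGG they were 18.2% against 6.34%, and for GCGGGAA 12.1% against 4.60%. A match describes letters in the window and no more. GC content was 48.0% in the Exosc2 window, 54.0% in Exosc3, 64.0% in Dis3, 62.7% in Nup155 and 68.0% in Nup107.

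The 35 genes had a median level per length above that of all clusters. It was 22.1 RPKM (reads per unit of length and library total, as deposited) with both siRNAs, 20.8 after Ptbp1 siRNA and 17.8 in the control. The medians over the 13577 clusters at 1 CPM in any library were 6.65, 6.77 and 6.56 RPKM. Among the 35, the highest level per length was that of Nup85 (56.0 RPKM) with both siRNAs, Nup62 (51.8 RPKM) after Ptbp1 siRNA and Nup107 (44.5 RPKM) in the control. The lowest was Exosc9 in every library, at 4.42, 3.37 and 2.73 RPKM, and Exosc5, Nup214 and Nup160 also lay below the median of all clusters in every library. Its cluster was 2.51 times as long as its longest coding transcript in the GENCODE annotation of the same build, and that of Exosc5 4.97 times, so their values per length are lower than a transcript length would give.

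**Figure D1:**
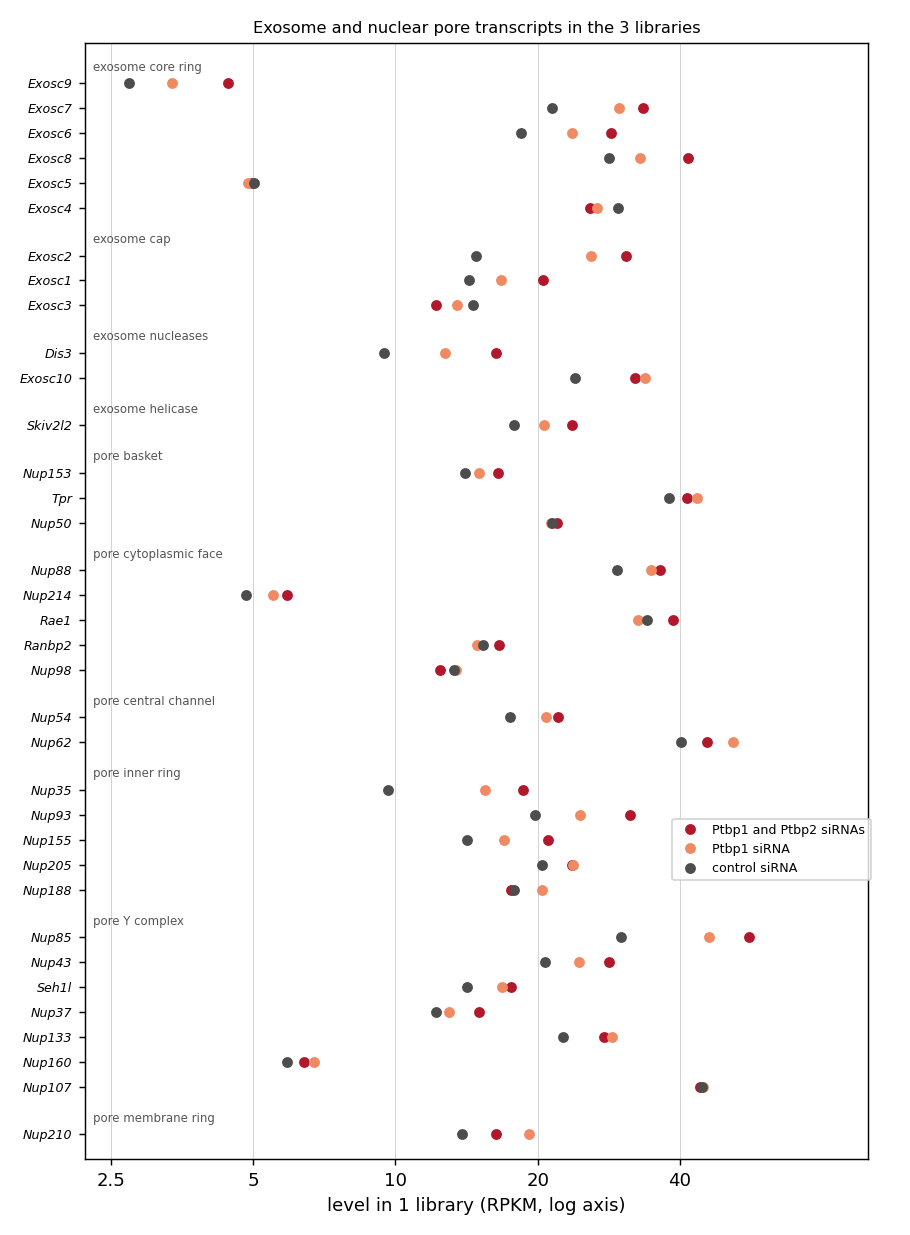
Level of each exosome and pore gene (RPKM, log axis) in the libraries with both siRNAs, Ptbp1 siRNA and control siRNA, 1 point per library, grouped by role. In most rows the control point lies furthest left; the points of Nup50, Nup98 and Nup107 nearly coincide, and their order here differs from that in CPM.

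Counted in CPM, the library with both siRNAs had the highest level for 21 of the 35 genes, 8 of 12 exosome genes and 13 of 23 pore genes. After Ptbp1 siRNA 8 were highest, 1 of the exosome and 7 of the pore. In the control 6 were highest: Exosc3, Exosc4 and Exosc5 of the exosome, and Nup50, Nup98 and Nup107 of the pore. On the deposited RPKM scale the last 3 were close: Nup50 had 22.0 RPKM with both siRNAs, 21.3 after Ptbp1 siRNA and 21.4 in the control, Nup98 12.4, 13.4 and 13.3, and Nup107 44.1, 44.7 and 44.5. On both scales the control had the lowest level for 26 of the 35. No share of all clusters was computed for these orders, so the counts describe the 35 genes alone. Together the 35 genes took 0.470% of reads with both siRNAs, 0.454% after Ptbp1 siRNA and 0.389% in the control.

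With both siRNAs against the control, the exosome and pore genes lay mostly above the control by amounts under 2-fold. The median difference over the 35 was 0.22 on the log2(CPM + 1) scale, with a range of -0.31 to 0.97, beside a median of -0.01 over the 13465 clusters tested. Of the 35, 28 lay above 0 and 7 below, against 48.9% above 0 among all clusters tested. The counting interval of the read ratio lay above 1 for 26 genes and below 1 for 4, where 29.0% and 32.1% of all clusters did so. Among the 7846 clusters with mean levels as high as these genes (21.6 to 472 CPM) the shares were 34.7% and 38.2%. No gene passed 2-fold in either direction on that scale, where 1.05% of clusters were higher and 2.67% lower. At 1.5-fold 6 were higher, namely Exosc2, Exosc9, Dis3, Nup35, Nup85 and Nup93, and 0 were lower, where 7.23% of clusters were higher and 10.0% lower. Exosc9 lost its call with a pseudocount of 5 CPM (0.51) and with the deposited RPKM (0.54), and Exosc6 and Exosc7 passed with library-total scaling (0.62 and 0.63), so that the count ran from 5 to 8 over the settings tried.

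After Ptbp1 siRNA alone against the same control library, the median over the 35 was 0.16, with a range of -0.21 to 0.73, beside -0.01 over 13399 clusters. In this comparison 27 lay above 0, where 48.5% of clusters did. Intervals above 1 were found for 23 genes and below 1 for 3, against 21.1% and 26.2% of clusters. Past 1.5-fold 2 genes were higher, Exosc2 and Nup35, and 0 were lower, where 2.93% and 3.46% of clusters passed. Nup35 lost its call with a pseudocount of 5 CPM, and the count ran from 1 to 3. At 2-fold there were 0 in either direction, where 0.269% of clusters were higher and 0.455% lower.

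Both siRNAs against Ptbp1 siRNA alone set side by side single libraries whose labels differ in the Ptbp2 siRNA. Ptbp1 itself was 1.21-fold higher with both siRNAs in this pair (1.13 to 1.30). The median over the 35 genes was 0.10 with a range of -0.23 to 0.37, and 23 lay above 0, where 49.4% of clusters did. Intervals lay above 1 for 17 genes and below 1 for 5, beside 22.3% and 22.5% of clusters. No gene passed 1.5-fold, where 1.83% of clusters were higher and 3.52% lower, nor 2-fold, where 0.0891% were higher and 0.342% lower. The 3 comparisons share libraries pair by pair, so they are not independent of each other. All intervals cover counting error alone, and reads amplified by PCR are not independent molecules, so they may be too narrow even for that.

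**Figure D2:**
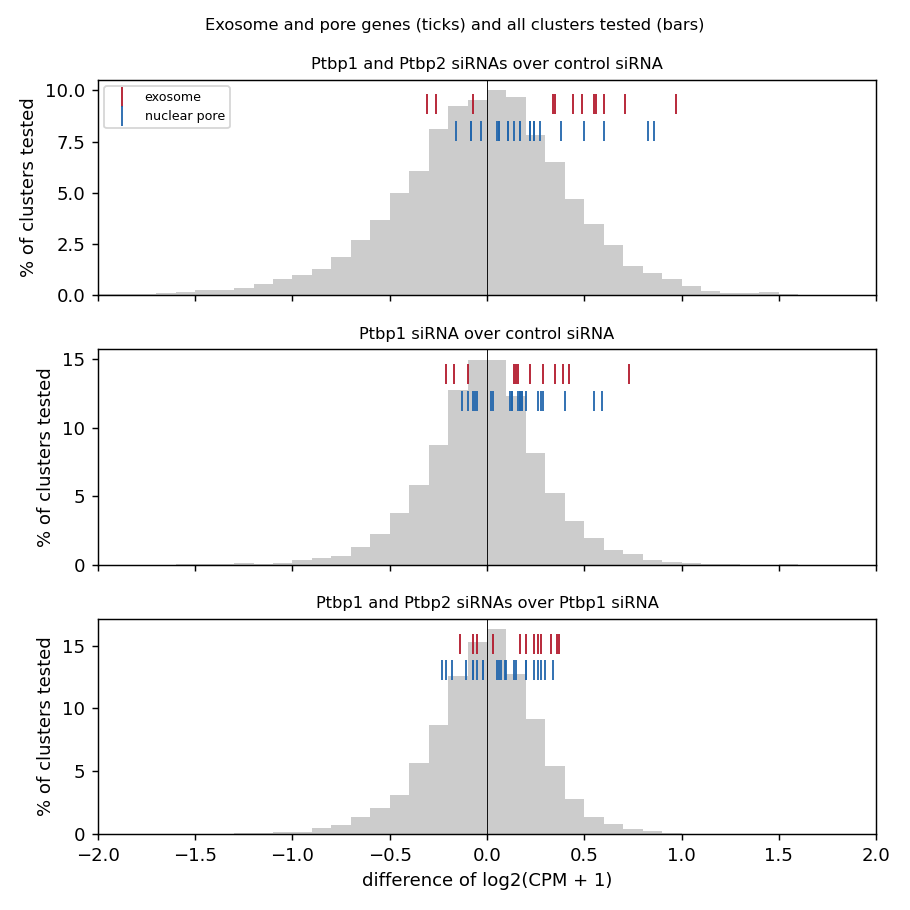
Difference of log2(CPM + 1) in the 3 comparisons: grey bars give the percentage of all clusters tested per step of 0.1, within 2 log2 units of 0, and ticks give the exosome genes (red, upper row) and pore genes (blue, lower row). In both knockdowns against the control most ticks lie right of 0, and the furthest is Exosc2 at 0.97 with both siRNAs.

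With both siRNAs the RNA-binding cap of the exosome held both its highest and its lowest gene relative to the control. Exosc2, a cap subunit that contacts incoming RNA (chromosome 2, 31526258 to 31536828 of the mm9 build), stood at 74.5 CPM with both siRNAs, 62.9 after Ptbp1 siRNA and 37.6 in the control, from 1077, 1083 and 582 reads. It was 1.98-fold higher than the control with both siRNAs (1.79 to 2.19) and 1.67-fold higher after Ptbp1 siRNA (1.51 to 1.86). Both knockdown libraries thus stood well above the control, and the library with both siRNAs was 1.18-fold above Ptbp1 siRNA alone (1.09 to 1.29). About 7.8% of the 36-base windows of its annotated exons recur in the Lsc gene on chromosome 7. Lsc had 886, 1116 and 1170 reads in the same order of libraries. Whether reads of one gene were counted for the other was not tested.

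Exosc1, another cap subunit (chromosome 19, 41998214 to 42007785), had 48.4 CPM with both siRNAs, 39.6 after Ptbp1 siRNA and 35.4 in the control. It was 1.37-fold higher than the control with both siRNAs (1.22 to 1.53), while the interval after Ptbp1 siRNA, at 1.12-fold, included 1 with a lower bound of 0.998. Exosc3, the remaining cap subunit (chromosome 4, 45329503 to 45333476), ran the other way at 22.3, 24.7 and 27.8 CPM. Its ratio to the control was 0.800 with both siRNAs (0.690 to 0.926) and 0.887 after Ptbp1 siRNA, where the interval included 1 (0.774 to 1.02). Per length the cap genes were close to each other in the control, between 14.3 and 14.8 RPKM, and spread from 12.2 to 30.8 RPKM with both siRNAs. Exosc2 had 2.52 times the RPKM of Exosc3 with both siRNAs, 1.92 times after Ptbp1 siRNA and 1.02 times in the control.

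The barrel is formed by 6 ring subunits related to RNase PH, which in mammals have lost their own nuclease activity. In this ring 4 genes, Exosc6, Exosc7, Exosc8 and Exosc9, lay above the control with both siRNAs, with 1.41-fold to 1.54-fold ratios. Over the 6 ring genes 4 intervals lay above 1, 1 lay below 1 and 1 included 1, where 29.0% of all clusters lay above 1 and 32.1% below. Exosc9 (chromosome 3, 36451529 to 36464448) had 26.8 CPM with both siRNAs, 20.5 after Ptbp1 siRNA and 17.4 in the control, which was 1.54-fold (1.32 to 1.81) and 1.18-fold above the control (1.00 to 1.39). About 10.9% of its exon bases lie opposite Ccna2, a cyclin gene at 312, 312 and 283 CPM. The reads of such antisense partners cannot be told apart where counting ignores strand, and whether it did was not given in the sources used here. Exosc7 (chromosome 9, 123022350 to 123045248) had 51.8, 45.9 and 34.8 CPM, 1.49-fold (1.33 to 1.66) and 1.32-fold (1.18 to 1.47) above the control.

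Exosc6 (chromosome 8, 113580240 to 113581500) had 53.7 CPM with both siRNAs, 44.6 after Ptbp1 siRNA and 36.3 in the control. Its ratio to the control was 1.48 with both siRNAs (1.33 to 1.65) and 1.23 after Ptbp1 siRNA (1.10 to 1.37). In the GENCODE annotation all of its bases lie inside exons of the alanyl-tRNA synthetase gene Aars on the same strand. In the deposited table the Aars cluster ends at 113580771, so the 2 spans there overlap only in part. Aars had 1154, 1163 and 830.1 CPM and stood 1.39-fold (1.36 to 1.42) and 1.40-fold (1.37 to 1.43) above the control. How much of the Exosc6 value comes from Aars cannot be told. Between the knockdown libraries the ratio was 1.2 for Exosc6 (1.09 to 1.33) and 0.992 for Aars (0.972 to 1.01).

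The other ring genes were not above the control. Exosc4 (chromosome 15, 76157828 to 76161101) had 68.8 CPM with both siRNAs, 71.3 after Ptbp1 siRNA and 82.7 in the control, 1.20-fold (1.11 to 1.31) and 1.16-fold lower than the control (1.07 to 1.26). In the annotation 19.8% of its exon bases lie opposite Oplah, whose level was 6.29, 6.57 and 6.39 CPM. Exosc5 had 38.0, 37.1 and 40.0 CPM, with intervals that included 1 in all 3 comparisons. Summed over the ring, the level was 1.19-fold above the control with both siRNAs (1.14 to 1.24), and summed over the cap 1.44-fold (1.35 to 1.54).

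The nucleases that do the degrading, Dis3 and Exosc10, both had more reads in the knockdowns, in a different order. Dis3, the processive exonuclease at the base of the barrel (chromosome 14, 99475854 to 99498406), had 84.2 CPM with both siRNAs, 65.6 after Ptbp1 siRNA and 51.1 in the control. It was 1.65-fold (1.5 to 1.80) and 1.28-fold (1.17 to 1.41) above the control. Exosc10, the nuclear exonuclease that sits on the cap (chromosome 4, 147932568 to 147956507), had 132, 139 and 103 CPM, 1.28-fold (1.20 to 1.37) and 1.34-fold (1.26 to 1.43) above the control. Dis3 was thus highest with both siRNAs, whereas Exosc10 was about equally high in both knockdown libraries, with a ratio between them of 0.953 (0.897 to 1.01).

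Per length Exosc10 had 1.97 times the level of Dis3 with both siRNAs, 2.66 times after Ptbp1 siRNA and 2.54 times in the control. This balance was lower with both siRNAs than in the control by a ratio of 0.778 (0.696 to 0.870). After Ptbp1 siRNA it was 1.05 times that of the control, with an interval that included 1 (0.939 to 1.17). Summed, the nucleases were 1.40-fold above the control with both siRNAs (1.33 to 1.48). Relative to the cap and ring together they were 1.12 times the control's proportion with both siRNAs (1.05 to 1.19) and 1.19 times after Ptbp1 siRNA (1.12 to 1.27).

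Skiv2l2 encodes the helicase that unwinds RNA for the nuclear exosome (chromosome 13, 113657989 to 113717589). It had 185 CPM with both siRNAs, 162 after Ptbp1 siRNA and 147 in the control, 1.27-fold (1.20 to 1.34) and 1.10-fold (1.04 to 1.17) above the control. The summed level of the other 11 genes relative to Skiv2l2 was 1.03 times the control's with both siRNAs, with an interval that included 1 (0.965 to 1.09).

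Over all 12 exosome genes the median difference was 0.46 with both siRNAs and 0.19 after Ptbp1 siRNA against the control, and 0.22 between the knockdown libraries. Intervals lay above 1 for 9, 8 and 8 of the 12 in these comparisons and below 1 for 2, 1 and 0. Among all clusters tested 29.0%, 21.1% and 22.3% lay above 1, and 32.1%, 26.2% and 22.5% below. Among clusters with levels like those of the 35 genes the shares were 34.7%, 25.4% and 28.7% above, and 38.2%, 33.3% and 26.9% below. The summed level was 862 CPM with both siRNAs, 773 after Ptbp1 siRNA and 667 in the control.

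**Figure D3:**
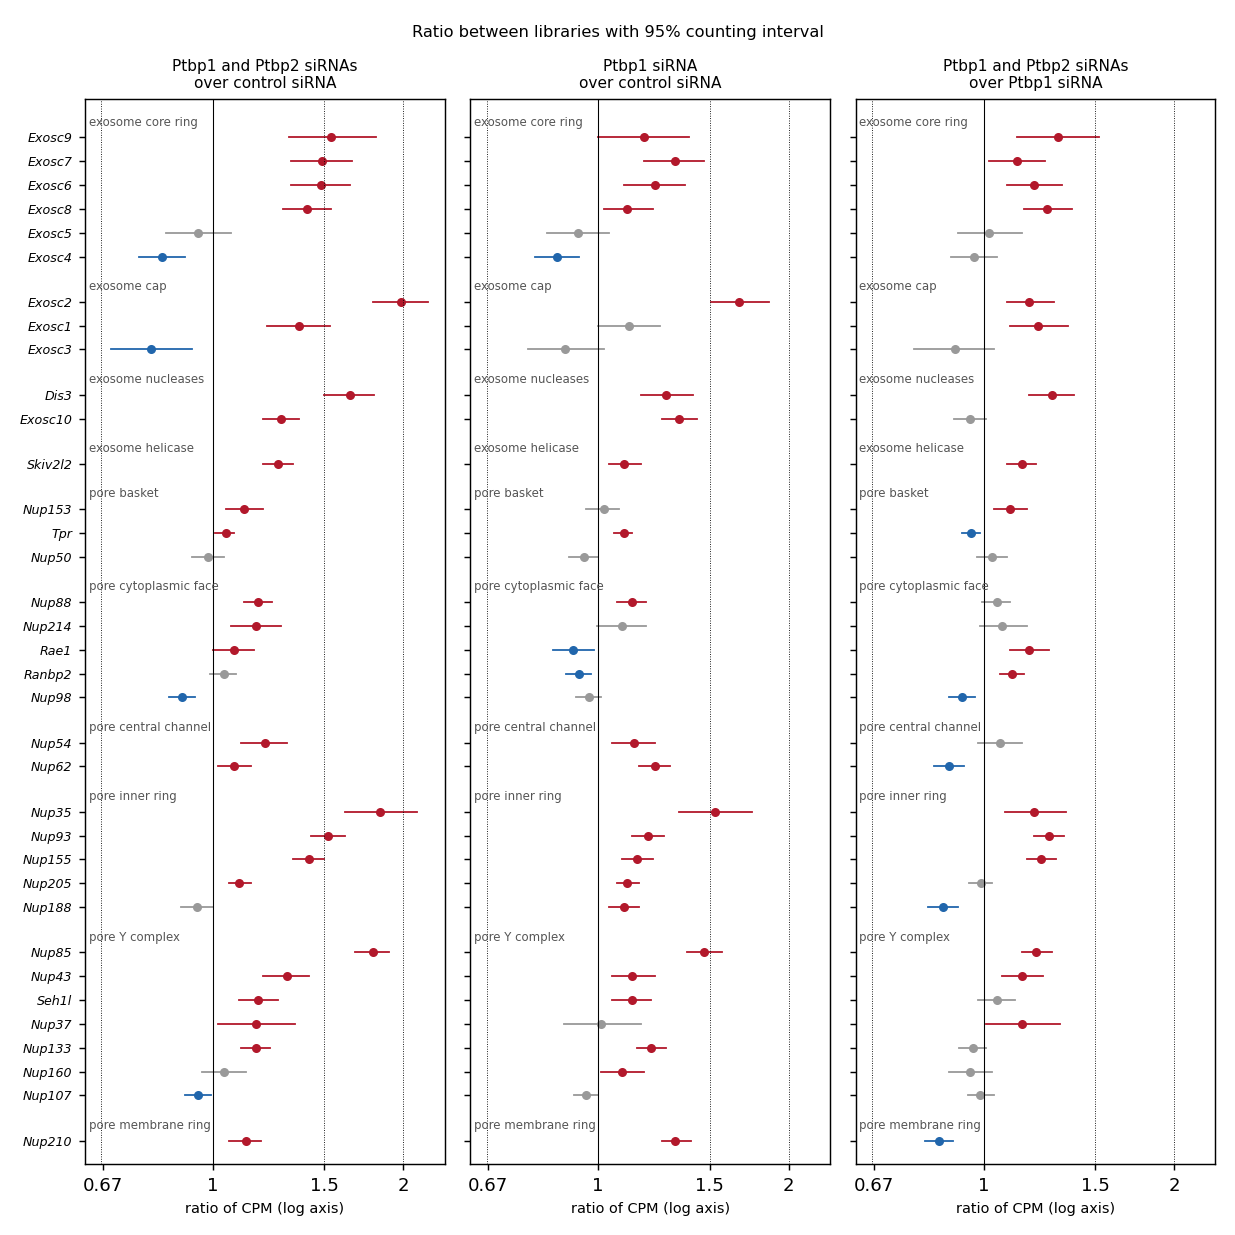
Ratio of CPM (log axis) with its 95% counting interval for each exosome and pore gene, with both siRNAs over control (left), Ptbp1 siRNA over control (middle) and both siRNAs over Ptbp1 siRNA (right). Red marks intervals above 1, blue intervals below 1 and grey those that include 1, and dotted lines stand at 1.5-fold and 2-fold. With both siRNAs over control, 26 are red and 4 blue, where 29.0% of all clusters lay above 1 and 32.1% below.

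The nuclear basket, where export-ready RNA is sorted, differed little between the libraries. Tpr, whose long coiled coils form the basket filaments (chromosome 1, 152240430 to 152297001), had 472 CPM with both siRNAs, 494 after Ptbp1 siRNA and 451 in the control. It was the gene with most reads of the 35 and stood 1.05-fold (1.01 to 1.08) and 1.10-fold (1.06 to 1.13) above the control. Nup153, which anchors the basket to the pore (chromosome 13, 46775472 to 46822957), had 137, 124 and 122 CPM. Its ratio to the control was 1.12 with both siRNAs (1.05 to 1.20) and 1.02 after Ptbp1 siRNA (0.956 to 1.08).

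Nup50, a mobile basket protein that helps release imported cargo (chromosome 15, 84753859 to 84773394), had 156, 151 and 159 CPM, with intervals that included 1 in all comparisons. Its difference with both siRNAs was -0.03 and turned as far as 0.04 under another scaling of the libraries. Per length Tpr had 1.88 times the level of Nup50 with both siRNAs, 2.04 times after Ptbp1 siRNA and 1.77 times in the control. The summed basket level was 764, 769 and 732 CPM, 1.04-fold (1.02 to 1.07) and 1.05-fold (1.02 to 1.08) above the control.

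The cytoplasmic face of the pore, where exported RNA is released, was also close to the control. Nup88, which holds the cytoplasmic filaments together with Nup214 (chromosome 11, 70756574 to 70783476), had 196 CPM with both siRNAs, 188 after Ptbp1 siRNA and 167 in the control, 1.18-fold (1.12 to 1.24) and 1.13-fold (1.07 to 1.19) higher. Nup214, a docking site of the export receptor CRM1 (chromosome 2, 31829971 to 31909496), had 70.5, 65.7 and 60.4 CPM, 1.17-fold higher with both siRNAs (1.07 to 1.28). About 4.7% of its exon bases lie opposite other genes. Both of these genes were highest with both siRNAs and lowest in the control.

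Nup98, a pore protein with phenylalanine-glycine repeats found on both faces, had 213, 231 and 239 CPM and was 1.12-fold lower with both siRNAs (1.07 to 1.17). After Ptbp1 siRNA its difference was -0.05 and turned as far as 0.02 under another scaling. Rae1, the mRNA export partner of Nup98, had 98.7, 83.4 and 91.3 CPM. Ranbp2, the large Ran-binding filament protein, had 247, 222 and 239 CPM. These 2 genes were lower after Ptbp1 siRNA than in either other library.

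The Y complex, the outer scaffold ring of the pore, ranged widely. Nup85 (chromosome 11, 115425759 to 115445227) had 179 CPM with both siRNAs, 148 after Ptbp1 siRNA and 100.4 in the control, from 2596, 2544 and 1555 reads. It was 1.79-fold (1.68 to 1.90) and 1.47-fold (1.38 to 1.57) above the control. Nup43 (chromosome 10, 7387315 to 7398677) had 92.5, 80.2 and 70.8 CPM, 1.31-fold (1.20 to 1.42) and 1.13-fold (1.05 to 1.23) higher. Both of these scaffold genes were highest with both siRNAs and lowest in the control.

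Nup107, the scaffold protein that links the stem of the Y, had 226, 229 and 239 CPM. It was 1.06-fold lower with both siRNAs (1.01 to 1.11), and its difference of -0.06 after Ptbp1 siRNA turned as far as 0.01 under another scaling. Nup85 thus had 1.27 times the RPKM of Nup107 with both siRNAs, 1.03 times after Ptbp1 siRNA and 0.673 times in the control. Of the other Y complex genes, Nup133 was 1.17-fold above the control with both siRNAs (1.11 to 1.23), Seh1l 1.18-fold (1.10 to 1.27) and Nup37 1.17-fold (1.02 to 1.35), and the interval of Nup160 included 1 (0.960 to 1.13). Summed, the 7 genes were 1.18-fold above the control with both siRNAs (1.15 to 1.21) and 1.13-fold after Ptbp1 siRNA (1.10 to 1.16).

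The inner ring, which ties the scaffold to the membrane and the channel, held the pore gene with the highest ratio. Nup35, an inner ring protein that binds membrane (chromosome 2, 80478974 to 80499060), had 43.3 CPM with both siRNAs, 36.0 after Ptbp1 siRNA and 23.5 in the control, from 627, 619 and 364 reads. It was 1.84-fold (1.62 to 2.10) and 1.53-fold (1.34 to 1.75) above the control. A copy on chromosome 7 (123226430 to 123228137) holds 36.1% of the 36-base windows of its annotated exons, and the cluster there had 1 read in every library. Those exons hold 3235 bases and the counted cluster 1559. The share within the cluster was therefore not determined, and the read number of Nup35 is uncertain.

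Nup93, the linker that joins inner ring and channel (chromosome 8, 96738502 to 96841128), had 183, 144 and 120.3 CPM, 1.52-fold (1.43 to 1.62) and 1.20-fold (1.13 to 1.27) above the control. For it 46.4% of 36-base windows recur on an unplaced contig, so its read number is uncertain as well. Nup155, which lies against the membrane, had 196, 159 and 139 CPM, 1.42-fold (1.34 to 1.5) and 1.15-fold (1.09 to 1.22) higher. These 3 inner ring genes had the same order of libraries, highest with both siRNAs and lowest in the control.

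The 2 large inner ring scaffolds did not share this order. Nup188 (chromosome 2, 30141954 to 30199783) had 155 CPM with both siRNAs, 180.4 after Ptbp1 siRNA and 165 in the control. It was 1.10-fold above the control after Ptbp1 siRNA (1.04 to 1.16) and 1.16-fold lower with both siRNAs than with Ptbp1 siRNA alone (1.10 to 1.23). In the annotation 4.6% of its exon bases are shared on the same strand and 7.9% lie opposite other genes. Nup205 had 284, 287 and 258 CPM, 1.10-fold above the control with both siRNAs (1.06 to 1.15). Nup93 and Nup155 each bind these scaffolds, and per length Nup93 had 1.78 times the level of Nup188 with both siRNAs, 1.21 times after Ptbp1 siRNA and 1.11 times in the control.

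In the central channel, whose repeat proteins form the permeability barrier, Nup62 (chromosome 7, 52083858 to 52086177) had 158 CPM with both siRNAs, 179 after Ptbp1 siRNA and 146 in the control. It was 1.08-fold (1.02 to 1.15) and 1.23-fold (1.16 to 1.30) above the control. Its partner Nup54 (chromosome 5, 92844567 to 92864226) had 79.4, 74.7 and 65.8 CPM, 1.21-fold (1.11 to 1.31) and 1.14-fold (1.05 to 1.23) higher. A copy on chromosome 1 inside Thsd7b holds 38.2% of the 36-base windows of Nup54, and Thsd7b had 3, 1 and 0 reads. The read number of Nup54 is thus uncertain too.

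Nup210, a membrane-spanning protein of the luminal ring (chromosome 6, 90963065 to 91066789), had 170.0 CPM with both siRNAs, 199.9 after Ptbp1 siRNA and 151 in the control. It was 1.13-fold (1.06 to 1.19) and 1.32-fold (1.26 to 1.40) above the control, and 1.18-fold lower with both siRNAs than with Ptbp1 siRNA alone (1.12 to 1.24). Nup62, Nup188 and Nup210 were thus highest after Ptbp1 siRNA alone, as were Tpr, Exosc10, Nup133, Nup160 and Nup205. For Exosc10, Nup133, Nup160 and Nup205 the interval between the knockdown libraries included 1.

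Set against each other with both siRNAs, the exosome stood further above the control than the pore taken whole. The inner ring of the pore was an exception, with a median difference of 0.50 beside 0.46 for the exosome. The other pore parts had medians from 0.06 (basket) to 0.22 (Y complex). After Ptbp1 siRNA the exosome median of 0.19 was close to that of the pore. Over the 23 pore genes the median difference was 0.17 with both siRNAs and 0.16 after Ptbp1 siRNA against the control, and 0.07 between the knockdown libraries. Intervals lay above 1 for 17, 15 and 9 of the 23 and below 1 for 2, 2 and 5. Among all clusters tested 29.0%, 21.1% and 22.3% lay above 1, and 32.1%, 26.2% and 22.5% below. The 5 pore genes below 1 between the knockdown libraries were thus near the share of all clusters. The summed pore level was 3763 CPM with both siRNAs, 3684 after Ptbp1 siRNA and 3359 in the control, and that of the exosome relative to the pore was 1.15 times the control's with both siRNAs (1.12 to 1.19) and 1.06 times after Ptbp1 siRNA (1.03 to 1.09). Relative to the basket the exosome was 1.24 times the control's proportion with both siRNAs (1.19 to 1.28). The basket relative to the other pore genes was 0.915 times the control's (0.889 to 0.943). These intervals, too, cover counting error between single libraries.

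Related genes were examined through lists of the same pathways, whose counts with both siRNAs against the control are to be read beside the 29.0% of all clusters with intervals above 1 and the 32.1% below 1, or 34.7% and 38.2% at levels like those of the exosome and pore genes. Of 14 nuclear exosome cofactors, which guide RNA to the exosome, 6 had intervals above 1 and 3 below 1 with both siRNAs against the control, and the median difference was 0.03. Ncbp1, the large subunit of the nuclear cap-binding complex, had 155 CPM with both siRNAs, 130.1 after Ptbp1 siRNA and 104 in the control, 1.49-fold above the control with both siRNAs (1.40 to 1.59). Its small partner Ncbp2 had 29.7, 20.1 and 21.3 CPM, 1.39-fold higher (1.21 to 1.61). Mphosph6, an exosome-associated RNA-binding protein, had 69.3, 72.0 and 102 CPM, 1.47-fold lower than the control with both siRNAs (1.36 to 1.59). The exosome itself had a median of 0.46, and no test of one list against the other was made.

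Among 9 genes of the cytoplasmic exosome and other RNA exonucleases the median was 0.25, with 5 intervals above 1 and 1 below. Xrn1, the main cytoplasmic 5′-to-3′ exonuclease, had 20.2 CPM with both siRNAs, 25.7 after Ptbp1 siRNA and 31.1 in the control, 1.54-fold lower with both (1.33 to 1.79). Wdr61, a Ski complex subunit, was 1.27-fold higher (1.16 to 1.40). Hbs1l, a ribosome rescue GTPase, and Dxo, listed as Dom3z and encoding a decapping exonuclease, were each 1.23-fold higher.

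Of 8 other nucleoporins 4 had intervals above 1 and 3 below 1, with a median of 0.08. Nupl2, of the cytoplasmic face, had 22.7, 16.2 and 11.1 CPM in the order both siRNAs, Ptbp1 siRNA and control, a ratio of 2.05 with both siRNAs (1.70 to 2.48) and a difference of 0.97 on the log2(CPM + 1) scale, just short of the 2-fold limit. Tmem48, a membrane anchor of the pore, had 53.8, 46.6 and 29.1 CPM, 1.85-fold higher (1.65 to 2.08). Ahctf1, which seeds pores on chromatin, had 183, 206 and 229.5 CPM, a ratio of 0.799 (0.760 to 0.841).

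Of 23 mRNA export and TREX factors, which load spliced mRNA for export, 13 had intervals above 1 and 5 below 1 with both siRNAs, with a median of 0.16. Ddx39b, the export helicase listed as Bat1a, was 1.5-fold higher (1.44 to 1.56) and Thoc1 of the THO complex 1.45-fold higher (1.27 to 1.66), while Nxt2, a partner of the mRNA export receptor, was 1.59-fold lower (1.18 to 2.15) at 5.05, 7.21 and 8.01 CPM. Of 29 nuclear transport receptors and Ran cycle genes 23 had intervals above 1 and 1 below, with a median of 0.23. Cse1l, which returns importin alpha to the cytoplasm, had 328 CPM with both siRNAs, 253 after Ptbp1 siRNA and 194 in the control, 1.69-fold higher with both (1.61 to 1.77). Ranbp1, a cofactor of Ran, was 1.60-fold higher (1.54 to 1.66) and Xpot, the tRNA exporter, 1.42-fold (1.36 to 1.49). No gene of these 5 lists passed the 2-fold limit in any comparison.

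**Figure D4:**
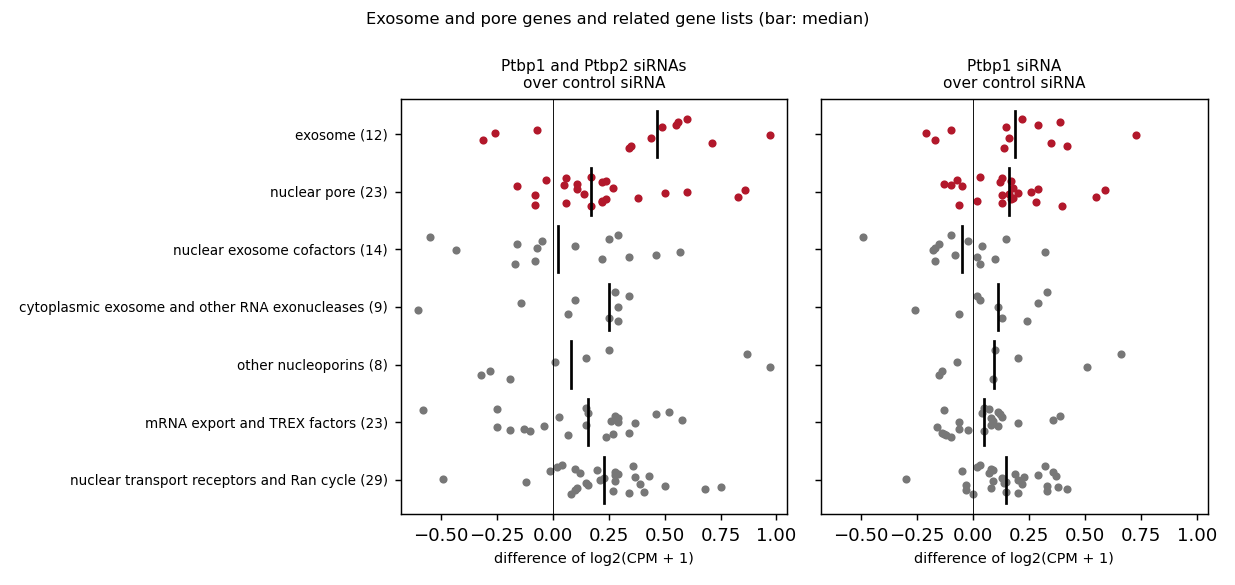
Difference of log2(CPM + 1) from the control for the exosome and pore genes (red) and 5 lists of related genes (grey), 1 point per gene, with both siRNAs (left) and Ptbp1 siRNA (right); black bars are medians and numbers in brackets count genes. With both siRNAs the exosome bar stands at 0.46, the pore bar at 0.17 and the bar of the nuclear exosome cofactors at 0.03.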

How the data were processed

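Poly(A)+ RNA of 3 libraries, 1 per group, was prepared with random primers and 15 PCR cycles and sequenced as 36-base paired ends, per the labels' protocols. The authors deposited a net read value and an RPKM value per gene cluster of a trimmed mm9 annotation, per the file headers. Both deposited columns are treated as a score, because 38 clusters hold values below 0 (lowest -65), so something had been subtracted. Neither the alignment and counting tools, the gene models, the use of strand, nor whether single reads or pairs were counted is given in the sources used here. Clusters with values below 0 or without a length (127) were left out. The other read values were treated like counts, as planned for plain counts, so the intervals are approximate, and narrower than they should be if each end of a pair was counted.

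Trimmed-mean (TMM) scaling, trimming 30% of log ratios and 5% of mean levels, was run in numpy 2.4.6 and gave factors of 1.02 with both siRNAs, 1.02 after Ptbp1 siRNA and 0.967 in the control. At these depths 3 reads are 0.174 to 0.207 CPM. Differences of log2(CPM + 1) understate those of low genes. Ratios are of CPM, with exact 95% intervals of the reads (Clopper-Pearson, given the total of the pair; scipy 1.17.1). A cluster was tested at 1 CPM in the higher library of a pair and called at 2-fold or 1.5-fold on the log2 scale with an interval that excluded 1. The steps were tested on simulated data.

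The members, their groups and the related lists were chosen with earlier results of these data known. Full values are given for the 3 genes furthest from the control in the exosome and in the pore and the 2 furthest in each group. They are also given for genes past 1.5-fold, nucleases, helicase, basket and most genes that share bases with others. Exosc8, with 2.1% of exon bases opposite another gene, and Seh1l, whose span overlaps another cluster, are given by ratios alone. In each related list the 3 furthest genes, with a tie, are named. Other genes, and ratios of paired genes outside the nucleases and the basket, were named after their values were seen. Zc3h18, Nrde2, Ttc37, Nup210l and Ipo5 matched no alias. Overlaps, transcript lengths and recurring 36-base windows come from the GENCODE annotation and genome of the same build as the files, and promoters from RefSeq by gene symbol. Shares of bases and windows are of a gene's annotated exons, not of its cluster. Exosc6 had no entry of its own there, so its cluster was used.

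Alternatives were a pseudocount of 0.1 or 5 CPM, a filter of 5 CPM or none, scaling by median of ratios, library totals or quantiles, other size limits, summing the clusters of a symbol, the deposited RPKM, and omitting the 4 members whose span overlaps another cluster.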

Additional observations from a re-analysis of the deposited data

How the results depend on the processing

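No paired analysis was possible because each group had 1 library, and for the same reason no library could be left out. The median difference over the 35 genes ranged from 0.22 to 0.29 with both siRNAs, from 0.15 to 0.23 after Ptbp1 siRNA and from 0.08 to 0.11 between the knockdowns, and no difference past a limit changed sign. The sign changed for Nup50 with both siRNAs and for Nup98 and Nup107 after Ptbp1 siRNA, which ran as far as 0.04, 0.02 and 0.01 above 0. Exosc2 passed 2-fold with both siRNAs (1 gene, against 0) under library-total scaling and with the deposited RPKM. Past 1.5-fold after Ptbp1 siRNA stood 1 gene in place of 2 with a pseudocount of 5 CPM. The lowest limit tried gave 14, 7 and 4 higher genes in the 3 comparisons, and one of 1.5-fold 6 and 2 against the control. No share of all clusters was computed at the lowest limit, so its counts describe the 35 genes alone and show no excess over other clusters. The Ptbp1 difference after Ptbp1 siRNA was -2.33 with quantile scaling and -2.30 with the deposited RPKM, which also gave -2.04 with both siRNAs and -1.85 for Ptbp2 between the knockdowns. Library-total scaling moved the median of all clusters to 0.06 in both comparisons with the control. It put 193 clusters higher and 282 lower by 2-fold with both siRNAs, against 142 and 360, and 50 and 47 after Ptbp1 siRNA, against 36 and 61. Of 105 gene differences per setting, 10 moved beyond their counting interval with library-total scaling, 5 with the deposited RPKM and 2 with quantile scaling. Single libraries, not depth, limit these comparisons, since every member had 269 reads or more.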
